A study of Mus musculus with 7 samples.

Results

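The genes that build cholesterol and fatty acids, with the factors that regulate them, were followed in Tim4+ resident macrophages of the peritoneal cavity. The 36 genes comprised 18 enzymes from acetoacetyl-CoA to cholesterol, 5 regulators, 3 sterol carriers and 10 enzymes of fatty acid synthesis, elongation and desaturation. They were picked by symbol, and each matched 1 row of the 57010 genes in the deposited count table. RNA came from C57BL/6 mice, with 3 libraries from steady state and 4 libraries from day 12 after injection of m204 MTO. No other treatment, allele, sex or age is named in the labels, and MTO is not spelled out there, while the series title refers to colorectal cancer in the peritoneum. Tim4+ cells had been isolated by flow sorting on CD11b, MHCII and Tim4, with a stated purity above 97%, and their poly-A RNA was sequenced. The labels speak of biological replicates, and whether each library held 1 mouse or a pool was not given in the sources used here.

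Cholesterol is made from acetyl-CoA through the mevalonate pathway, which ends in farnesyl diphosphate, and then through squalene and lanosterol. Transcription of these enzymes is driven mainly by SREBP2, and that of fatty acid enzymes mainly by SREBP1. Both factors are escorted from the endoplasmic reticulum by SCAP unless sterols bind and the INSIG proteins hold the complex back. Fatty acid synthesis starts when ATP-citrate lyase releases acetyl-CoA from citrate, and its products are then elongated and desaturated. In macrophages these pathways supply membranes and precursors of lipid mediators.

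Total counts ran from 32077050 to 38586694 per library, and levels are counts per 1000000 (CPM), scaled by TMM factors that correct for RNA composition. The floor of 3 counts equalled 0.0777 to 0.0935 CPM. Where a mean ± SD is given, n = 3 libraries in steady state, n = 4 at day 12. All 9 macrophage markers were detected in every library, and by edgeR's test 4 rose (Adgre1, Itgam, Mertk and Gata6), 3 fell (Csf1r, Lyz2 and Timd4) and Cd68 and Icam2 did not pass. Their sum was 49072 to 50897 CPM in steady state and 13062 to 19857 CPM at day 12, with Lyz2, a lysozyme, at 42101 ± 818 and 4624 ± 3767 CPM. Timd4, which encodes Tim4, ranged over 882 to 1043 and 399 to 643 CPM. Genes used as markers of other cells also moved between the groups. Of 6 monocyte genes 4 were tested, of which 2 rose and 1 fell. The sum of the 6 went from a range of 47.7 to 49.8 CPM to one of 7800 to 41801 CPM, nearly all of it Chil3. Of 10 B cell genes, 6 rose, with sums of 7.39 to 11.3 CPM and then 23.9 to 53.2 CPM. Of 10 mesothelial and fibroblast genes 1 was tested, and it rose (sums 0.00 to 0.224 and 1.16 to 1.54 CPM). Of 10 epithelial genes 3 were tested and 1 rose (sums 0.616 to 0.958 and 2.78 to 3.69 CPM), with Krt20, Cdx2 and Lgr5 at 0 reads throughout. Of 11 T and NK cell genes, all below 1 CPM in every library, 2 rose. Of 9 neutrophil genes 3 were tested and 2 fell, among them Csf3r (440.2 ± 8.41 to 160 ± 39.9 CPM). S100a8 did not pass (0.775 ± 0.209 and 1.37 ± 0.316 CPM), Ly6g had 0 reads, and 6 of the 9 were below 1 CPM in every library. Of 8 erythroid and platelet genes 2 were tested. Pf4 fell from 568 ± 118 to 35.2 ± 31.1 CPM, and Itga2b did not pass (0.631 ± 0.146 and 0.615 ± 0.231 CPM). Ppbp, another platelet gene, had at most 4 reads in any library. Of 10 genes of handling stress, 6 rose and 2 fell, among them Fos (5.16-fold higher) and Hspa1b (0.234 of steady state). The part of these cells and of handling in the results below was not tested.

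At day 12 transcripts of the sterol enzymes Mvd and Dhcr7 and of the fatty acid enzymes Acly and Scd1 were higher than in steady state. Those of the sterol enzyme Sc5d and of the fatty acid enzymes Acaca, Elovl5, Elovl6 and Fads1 were lower. The count test, edgeR's quasi-likelihood test with Benjamini-Hochberg adjustment over all 15981 genes tested and a threshold of 0.05, was met by 9 of the 35 members tested (25.7%), 4 higher and 5 lower. Over all genes the same test called 20.3%, with 10.1% higher and 10.2% lower, so the members' share was near the background. Of the called members, 5 differed by at least 2-fold, and 10.1% of all genes were both called and that far apart. The 2 groups did not overlap in 12 members, 5 higher at day 12 and 7 lower, against 16.5% of all genes higher and 18.5% lower. The median log2 fold change was -0.01 over the members and 0.00 over all genes. In 13 of the 35 members the 95% interval of the fold lay within 1.5-fold either way as it did in 5750 of all genes tested. In bulk RNA, fewer cells of a type and less RNA per cell cannot be told apart.

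**Figure D1:**
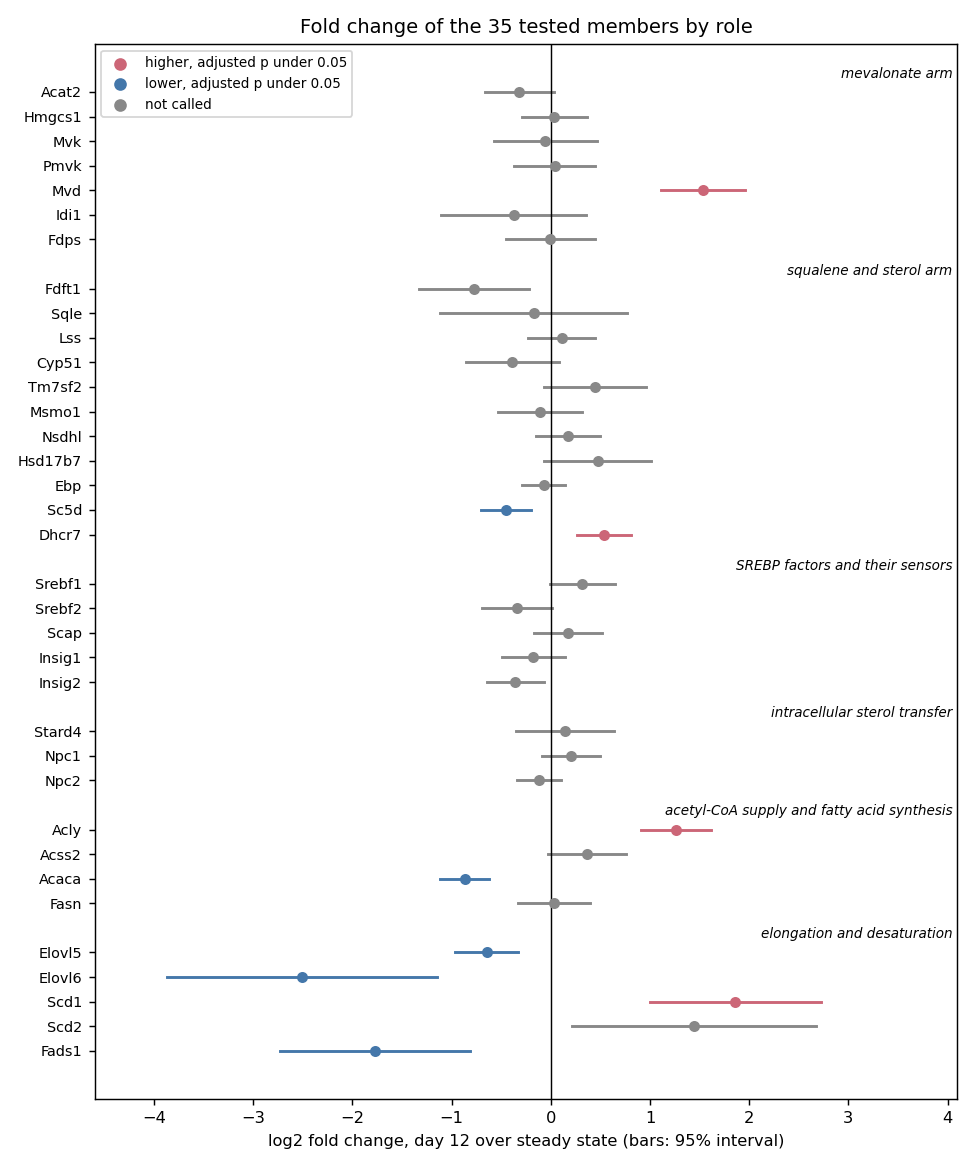
Log2 fold change of each tested gene (x axis, day 12 over steady state) with its 95% interval (bar), grouped by role (y axis). Red marks the 4 genes that rose, blue the 5 that fell and grey those that did not pass; Mvd stands to the right of the other sterol enzymes, and the elongation and desaturation genes spread from -2.51 (Elovl6) to 1.86 (Scd1).

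The bases before the start sites were read from a genome reference, not from the RNA counts. Of the 36 members, 28 had at least 1 start in the RefSeq promoter table (GRCm38.p6), and 4 are printed, chosen because they behaved differently at day 12. Hmgcs1 and Mvd are both mevalonate enzymes, of which Hmgcs1 did not pass the test and Mvd rose, while Acly rose and Elovl5 fell. Each line gives the 250 bases before the start, 5′ to 3′ on the gene's strand. Capitals mark 4 motifs on either strand: CCAAT, the box bound by NF-Y, GGGCGG, the GC box bound by SP1, CACGTG, an E-box, and TCACNCCAC, a core of the sterol response element.
Hmgcs1: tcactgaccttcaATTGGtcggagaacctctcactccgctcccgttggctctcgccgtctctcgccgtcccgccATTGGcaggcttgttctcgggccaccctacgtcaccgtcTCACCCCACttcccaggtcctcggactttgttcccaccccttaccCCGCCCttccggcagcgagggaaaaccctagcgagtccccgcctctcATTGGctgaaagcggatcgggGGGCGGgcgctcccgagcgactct
Mvd: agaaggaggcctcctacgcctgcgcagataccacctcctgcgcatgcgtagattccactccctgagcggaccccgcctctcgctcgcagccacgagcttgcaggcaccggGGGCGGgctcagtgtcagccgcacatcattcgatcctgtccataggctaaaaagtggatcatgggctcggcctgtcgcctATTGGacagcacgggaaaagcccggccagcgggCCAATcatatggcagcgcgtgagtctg
Acly: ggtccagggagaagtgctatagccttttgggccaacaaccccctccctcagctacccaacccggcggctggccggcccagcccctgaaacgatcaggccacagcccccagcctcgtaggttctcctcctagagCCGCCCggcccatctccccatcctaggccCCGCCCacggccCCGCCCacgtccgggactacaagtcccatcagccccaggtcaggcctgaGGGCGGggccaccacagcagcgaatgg
Elovl5: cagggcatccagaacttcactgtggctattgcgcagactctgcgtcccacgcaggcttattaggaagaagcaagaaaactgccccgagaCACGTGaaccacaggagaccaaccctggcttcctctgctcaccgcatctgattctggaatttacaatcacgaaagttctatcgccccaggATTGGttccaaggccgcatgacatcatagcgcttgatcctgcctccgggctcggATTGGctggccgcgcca
They lie at chr13:119690101-119690350, plus strand, for Hmgcs1, chr8:122443423-122443672, minus strand, for Mvd, chr11:100528001-100528250, minus strand, for Acly, and chr9:77917115-77917364, plus strand, for Elovl5. The TCACNCCAC letters were found before 1 of the 28 genes (3.57%), Hmgcs1, 137 to 129 bases before its start, and before 1.22% of all 27025 genes in the table, predicted genes included. A CCAAT box was found before 22 of 28 members (78.6%) and 37.5% of all genes, and a GC box before 23 (82.1%) and 35.4%. The E-box was found before 6 (21.4%) and 6.86%. Some genes have several windows. By window, members and the whole table had shares of 63.9% and 33.8% for CCAAT, 72.2% and 32.7% for the GC box and 16.7% and 6.02% for the E-box. The whole table includes genes not expressed in these cells, and shares among expressed genes were not counted. All 9 matched enzymes of the squalene and sterol arm had a CCAAT box. Of the 7 called members with a window, Mvd, Dhcr7, Sc5d and Elovl5 had the box and Acly, Acaca and Elovl6 did not. The window listed for Acaca held none of the 4 motifs, and it may precede an internal exon rather than a start, so its place among the 28 is uncertain. Matches of different motifs were counted separately, and a match describes letters only.

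Among the 7 mevalonate enzymes, Mvd rose and the other 6 did not pass (14.3% called, against 20.3% of all genes). Mvd encodes mevalonate diphosphate decarboxylase, which makes isopentenyl diphosphate (ENSMUSG00000006517, chromosome 8, 123160340 to 123170161 in GRCm39, as the other positions from the count table). It stood at 9.46, 9.72 and 10.1 CPM in steady-state replicates 1, 2 and 3 and at 24.3, 23.1, 26.9 and 38.8 CPM in day 12 replicates 1, 2, 3 and 4. Every day 12 library was above every steady-state library, and replicate 4 was the highest. The rise was 2.90-fold (95% interval 2.16 to 3.88, log2 fold change 1.54, SE 0.19, edgeR adjusted p = 0.000720). Hmgcs1, HMG-CoA synthase, which feeds the pathway, was at 26.7, 23.3 and 24.5 CPM in steady state and at 25.6, 26.5, 30.0 and 19.8 CPM at day 12. Its groups overlapped, and the 95% interval of its fold was 0.818 to 1.29 (edgeR adjusted p = 0.889).

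The kinases that act just before Mvd did not pass. Mvk, mevalonate kinase, was at 5.95 ± 0.679 and 5.73 ± 1.67 CPM in steady state and at day 12. Pmvk, phosphomevalonate kinase, was at 6.64 ± 0.609 and 6.83 ± 1.24 CPM. The 95% intervals of their folds were 0.671 to 1.38 and 0.775 to 1.36. Fdps, farnesyl diphosphate synthase, was at 8.15 ± 1.82 and 8.12 ± 1.26 CPM, and Idi1, the isomerase before it, at 5.80 ± 1.92 and 4.47 ± 1.70 CPM. Acat2, the cytosolic thiolase at the head of the pathway, was at 6.96 ± 0.399 and 5.59 ± 0.629 CPM. All 4 day 12 libraries of Acat2 were below those of steady state, but it did not pass (edgeR adjusted p = 0.185). Its neighbour Acat3, a related gene at 1.44 to 3.84 CPM, could share reads with it.

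In the squalene and sterol arm, Sc5d fell, Dhcr7 rose and 9 of 11 did not pass (18.2% called, against 20.3% of all genes). Both encode enzymes of the last steps before cholesterol. Sc5d, which puts in the double bond at C5 (ENSMUSG00000032018, chromosome 9, 42162891 to 42175552), was at 28.6, 26.6 and 25.1 CPM in steady state. At day 12 it was at 18.05, 21.8, 20.1 and 18.5 CPM, below steady state in all 4 libraries. The level fell to 0.733 of steady state (95% interval 0.616 to 0.871, edgeR adjusted p = 0.0200). Dhcr7, 7-dehydrocholesterol reductase (ENSMUSG00000058454, chromosome 7, 143376882 to 143402147), was at 13.8, 14.5 and 12.4 CPM in steady state and at 18.8, 17.6, 21.0 and 21.4 CPM at day 12. The groups did not overlap, and the rise was 1.45-fold (95% interval 1.201 to 1.75, edgeR adjusted p = 0.0133). Both calls were lost in some fits with 1 library left out, and these fits have fewer samples. Over 14 alternative fits the log2 fold change stayed within 0.469 to 0.617 for Dhcr7 and within -0.499 to -0.377 for Sc5d. The Dhcr7 call was lost without steady-state replicate 1 or 3 (edgeR adjusted p = 0.0527 and 0.0795). The Sc5d call was lost without steady-state replicate 1, 2 or 3 or day 12 replicate 1 (edgeR adjusted p = 0.123, 0.0730, 0.0517 and 0.0656).

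Fdft1, squalene synthase, which commits farnesyl diphosphate to sterols, narrowly missed the threshold. It was at 9.13, 8.38 and 5.65 CPM in steady state and at 4.16, 6.33, 3.74 and 3.80 CPM at day 12, so that only steady-state replicate 3 and day 12 replicate 2 crossed. Its fold was 0.584 (95% interval 0.399 to 0.856, edgeR adjusted p = 0.0527), and it passed as lower without either of these libraries (edgeR adjusted p = 0.0475 and 0.0181). Leaving out a library that crossed widens the difference by construction, and Fdft1 passed in 6 of 14 alternative fits. The gene overlaps Ctsb on the other strand, a far more abundant gene (3346 ± 441 CPM, then 2941 ± 211 CPM). The pair shares 774 bases at the ends of the genes. Whether counting used the strand was not given in the sources used here, so reads from that stretch cannot be told apart. Cyp51, lanosterol demethylase, at 9.57 ± 2.43 and 7.32 ± 1.32 CPM, overlaps Akap9 on the other strand, and Tm7sf2, a C14 sterol reductase, at 4.46 ± 0.555 and 6.08 ± 1.55 CPM, overlaps Vps51 on the same strand.

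The remaining enzymes of the arm did not pass. Ebp, the sterol isomerase, was at 39.6 ± 1.13 and 37.7 ± 2.53 CPM, with a fold interval of 0.818 to 1.11. Lss, which closes squalene epoxide into lanosterol, was at 11.4 ± 1.24 and 12.3 ± 1.71 CPM, and Nsdhl, a C4 demethylation enzyme, at 9.11 ± 0.835 and 10.3 ± 1.13 CPM. Msmo1, the C4 methyl oxidase, was at 20.5 ± 2.24 and 19.0 ± 4.59 CPM. Hsd17b7, the keto reductase of the same step, was at 3.17 ± 0.731 and 4.40 ± 0.973 CPM. Sqle, squalene epoxidase and a rate-limiting step, was at 4.21, 3.56 and 1.25 CPM in steady state and at 1.70, 3.92, 2.95 and 2.12 CPM at day 12. With that spread its fold interval was 0.462 to 1.71, so a change of 1.5-fold in either direction lay inside the interval.

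Many of the sterol enzymes were highest or lowest in the same library of a group. Of the 18 enzymes in both arms, 13 were highest in steady-state replicate 1 and 14 lowest in steady-state replicate 3. At day 12, replicates 1, 2, 3 and 4 were highest for 0, 9, 5 and 4 of them and lowest for 10, 4, 1 and 3. The same count was not made over all genes, so this order is not shown to be particular to these enzymes. A list of 20 cell cycle genes summed to 852, 513 and 299.8 CPM in steady-state replicates 1, 2 and 3 and to 159, 469, 167 and 396 CPM in day 12 replicates 1, 2, 3 and 4. The orders matched in part: steady-state replicate 1 and day 12 replicate 2 held the largest sums of their groups, but day 12 replicate 3, with a sum close to the lowest, was lowest for only 1 enzyme. None of the 20 cell cycle genes passed edgeR's test (0 at an unadjusted p under 0.05 and 0 with DESeq2), and Tpx2, a spindle protein, had the lowest p (17.5 ± 10.1 and 5.95 ± 4.57 CPM, edgeR adjusted p = 0.172). The part of the cell cycle sum in the levels of the sterol enzymes was not tested.

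**Figure D2:**
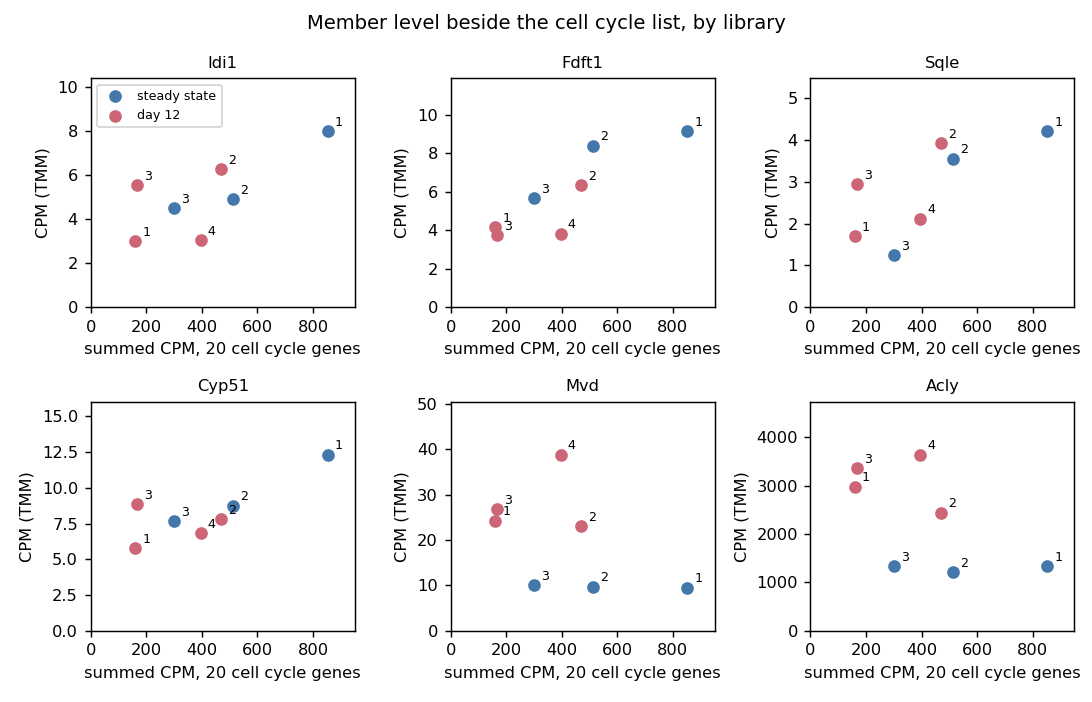
Level of 6 genes (y axes, CPM) against the summed CPM of 20 cell cycle genes (x axes), 1 point per library, numbered by replicate, blue for steady state and red for day 12. Idi1, Fdft1, Sqle and Cyp51 are highest in steady-state replicate 1, which has the largest sum (852 CPM). They are among the 13 of 18 sterol enzymes highest in that library within steady state. In Mvd and Acly all day 12 points lie above all steady-state points.

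The regulators of the pathway did not pass the test: 0 of 5, where 20.3% of all genes passed. In edgeR 1 had an unadjusted p under 0.05, and 0 passed with DESeq2. A set of 5 is too small to differ clearly from that share. Srebf1, which encodes SREBP1 and overlaps Rai1 on the other strand, was at 62.3, 61.4 and 59.8 CPM in steady state and at 68.1, 65.6, 72.6 and 98.7 CPM at day 12. The groups did not overlap, yet the spread at day 12 left a fold of 1.25 (95% interval 0.992 to 1.57, edgeR adjusted p = 0.161). Srebf2, which encodes SREBP2, was at 94.1, 99.5 and 86.7 CPM in steady state and at 56.5, 71.3, 74.4 and 93.4 CPM at day 12. Replicate 4 of day 12 lay within the steady-state range and the other 3 below it. Srebf2 had a fold of 0.791 (edgeR adjusted p = 0.163), and it passed as lower without day 12 replicate 4 (edgeR adjusted p = 0.0171). Leaving out the library nearest steady state widens the difference by construction, and Srebf2 passed in only 2 of 14 alternative fits.

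Scap, the escort protein, was at 36.3, 40.4 and 38.2 CPM in steady state and at 37.5, 38.5, 40.1 and 56.7 CPM at day 12, where replicate 4 stood apart from the other 3. Insig1, the sterol-regulated retention protein and itself an SREBP target, was at 71.9, 70.2 and 58.8 CPM and then at 49.1, 71.2, 62.4 and 54.4 CPM. The groups overlapped, with a fold interval of 0.710 to 1.104 (edgeR adjusted p = 0.424). Insig2, its relative, was at 17.3, 16.6 and 18.3 CPM in steady state and at 14.8, 13.8, 14.4 and 11.3 CPM at day 12, lower in all 4 libraries. It had a fold of 0.781 (95% interval 0.642 to 0.951, edgeR adjusted p = 0.0773). In only 1 of 14 alternative fits it passed, that without day 12 replicate 4 (edgeR adjusted p = 0.0451). Per kilobase of merged exons, Insig1 was more abundant than Insig2 in both groups (21.7 against 5.01 CPM per kb in steady state, 19.2 against 3.91 CPM per kb at day 12).

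Of the sterol carriers, 0 of 3 passed (0 at an unadjusted p under 0.05 in edgeR, 0 with DESeq2), too few to set against the 20.3% of all genes. Npc2, the soluble protein that binds cholesterol in the lysosome, was at 826, 777 and 837 CPM in steady state and at 753, 787, 738 and 719 CPM at day 12. The groups overlapped in day 12 replicate 2 alone, and the fold interval was 0.787 to 1.08. Per kilobase of merged exons, Npc2 was the second most abundant member (150 and 138 CPM per kb), after Acly. Merged exons cover all annotated transcripts of a gene (5438 bases for Npc2), so this rank depends on the length used. Npc1, the membrane partner that takes over its cholesterol, was at 101 ± 7.43 and 116 ± 16.6 CPM and overlaps Rmc1 on the other strand, which rose from 34.0 ± 0.589 to 47.8 ± 4.95 CPM (edgeR adjusted p = 0.0129). Stard4, which carries cholesterol through the cytosol, was at 18.9 ± 3.74 and 21.0 ± 5.55 CPM.

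The genes for making acetyl-CoA from citrate and for carboxylating it went in opposite directions. Acly encodes ATP-citrate lyase, which makes acetyl-CoA in the cytosol (ENSMUSG00000020917, chromosome 11, 100367179 to 100418826). Per kilobase of merged exons it was the most abundant member in both groups (245 and 587 CPM per kb), a rank that depends on the length used. It stood at 1332, 1209 and 1335 CPM in steady state and at 2977, 2439, 3357 and 3632 CPM at day 12. All day 12 libraries were above all of steady state, with a rise of 2.40-fold (95% interval 1.88 to 3.06, log2 fold change 1.26, SE 0.16, edgeR adjusted p = 0.000765). Acaca, acetyl-CoA carboxylase 1, which turns acetyl-CoA into malonyl-CoA and sets the rate of fatty acid synthesis (ENSMUSG00000020532, chromosome 11, 84020498 to 84292477), went down. It was at 351, 372 and 323 CPM in steady state and at 208, 201, 171 and 184 CPM at day 12. The groups lay far apart, and the level fell to 0.548 of steady state (95% interval 0.462 to 0.651, log2 fold change -0.87, SE 0.11, edgeR adjusted p = 0.000856).

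Fasn, fatty acid synthase, the next enzyme, was at 93.3, 81.9 and 77.4 CPM in steady state and at 74.3, 87.1, 71.2 and 111 CPM at day 12. The groups overlapped, with a fold interval of 0.794 to 1.31 (edgeR adjusted p = 0.922). Acss2, which makes acetyl-CoA from acetate, was at 9.13 ± 0.677 and 11.8 ± 2.35 CPM and overlaps Gss on the other strand. It passed as higher without day 12 replicate 4 (edgeR adjusted p = 0.0226), where it was at 8.82 CPM against 11.6 to 14.5 CPM in the other 3. Leaving out its lowest day 12 library widens the difference by construction, and Acss2 passed in only 2 of 14 alternative fits. Adipocytes also express Acly and Scd1 strongly. Of 6 adipocyte markers, Plin1 alone was tested, and it rose (edgeR adjusted p = 0.00230). It carried nearly all of the summed level, which ranged from 1.26 to 3.35 CPM in steady state and from 31.1 to 92.2 CPM at day 12. Adipoq, Cfd and Cidec had at most 4 reads in any library, and Lep and Pck1 had 0. The part of adipocyte RNA in these results was not tested.

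**Figure D3:**
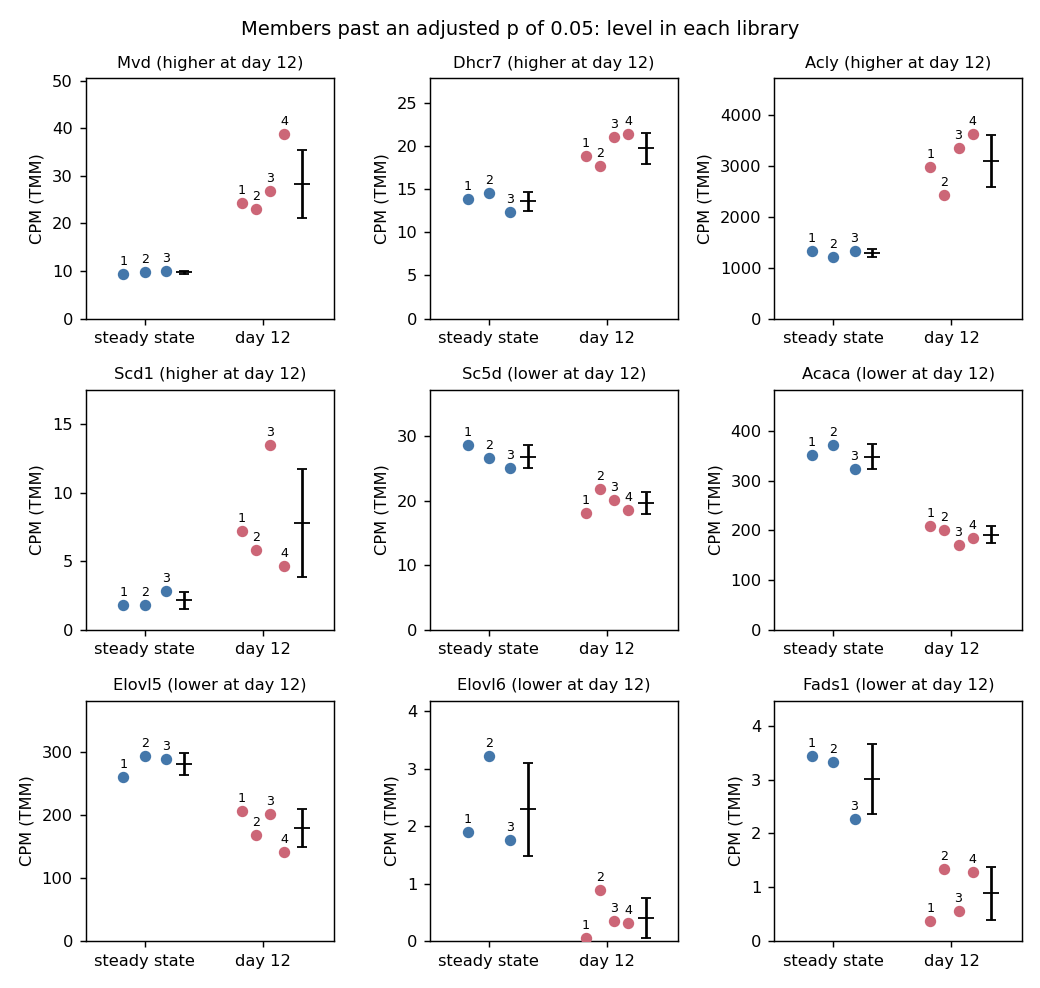
Level (y axes, CPM from 0) of the 9 genes that passed the test, 1 point per library numbered by replicate, with mean and SD as black bars. In all 9 the steady-state and day 12 libraries do not overlap; Acly and Acaca are separated by wide gaps, and Scd1 ranges from 4.64 to 13.5 CPM at day 12.

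Of the 5 tested genes of elongation and desaturation, 3 fell and 1 rose (80.0% called, against 20.3% of all genes, in a small set). Elovl5, the elongase of polyunsaturated fatty acids and the most abundant of the group per kilobase (79.6 CPM per kb in steady state), is at chromosome 9, 77824646 to 77891801 (ENSMUSG00000032349). It was at 259.8, 293 and 289 CPM in steady state and at 206, 168, 201 and 141 CPM at day 12, lower in all 4 libraries. The level fell to 0.638 of steady state (95% interval 0.511 to 0.797, edgeR adjusted p = 0.0120), a call lost without steady-state replicate 2 or 3 (edgeR adjusted p = 0.0568 and 0.0551). Elovl6, which lengthens palmitate to stearate (ENSMUSG00000041220, chromosome 3, 129326004 to 129432144), was scarce already. It had 64, 115 and 55 reads in steady state (1.90, 3.22 and 1.76 CPM) and 2, 35, 13 and 11 reads at day 12 (0.0530, 0.880, 0.342 and 0.319 CPM). The groups did not overlap, and day 12 replicate 1 was below the floor of 3 reads. The log2 fold change was -2.51 (95% interval -3.87 to -1.14, edgeR adjusted p = 0.0182). It was -3.22 without day 12 replicate 2, and the call was lost without steady-state replicate 2 (edgeR adjusted p = 0.0848).

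Fads1, the delta-5 desaturase of arachidonic acid synthesis (ENSMUSG00000010663, chromosome 19, 10160252 to 10174241), had 116, 119 and 71 reads in steady state and 14, 53, 21 and 44 at day 12. These were 3.44, 3.33 and 2.27 CPM against 0.371, 1.33, 0.552 and 1.28 CPM, with no overlap. Its log2 fold change was -1.77 (95% interval -2.73 to -0.81, edgeR adjusted p = 0.0178), and the call was lost without steady-state replicate 1 or 2 (edgeR adjusted p = 0.0748 and 0.0696). Fads2, the delta-6 desaturase of the same route, had 1, 1 and 0 reads in steady state and 0, 0, 4 and 0 at day 12. It was at or near the floor in both groups and was not tested.

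Of the 2 stearoyl-CoA desaturases, which make oleate and palmitoleate, Scd1 rose and Scd2 did not pass. Scd1 (ENSMUSG00000037071, chromosome 19, 44382894 to 44396318) was at 1.78, 1.82 and 2.84 CPM in steady state and at 7.23, 5.81, 13.5 and 4.64 CPM at day 12. All 4 day 12 libraries were above steady state, with replicate 3 the highest. The rise was 3.63-fold (95% interval 2.00 to 6.60, log2 fold change 1.86, SE 0.38, edgeR adjusted p = 0.00885). Scd2 was at 21.7, 7.20 and 15.7 CPM in steady state and at 50.9, 25.8, 64.7 and 20.6 CPM at day 12. Only day 12 replicate 4 fell within the steady-state range, and the fold of Scd2 was 2.72 (95% interval 1.16 to 6.38, edgeR adjusted p = 0.0971). Per kilobase, Scd2 was the more abundant of the pair in both groups (2.72 against 0.439 CPM per kb in steady state, 7.41 against 1.59 CPM per kb at day 12). The pair are neighbours with similar coding sequences, so the split of reads between them is uncertain.

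**Figure D4:**
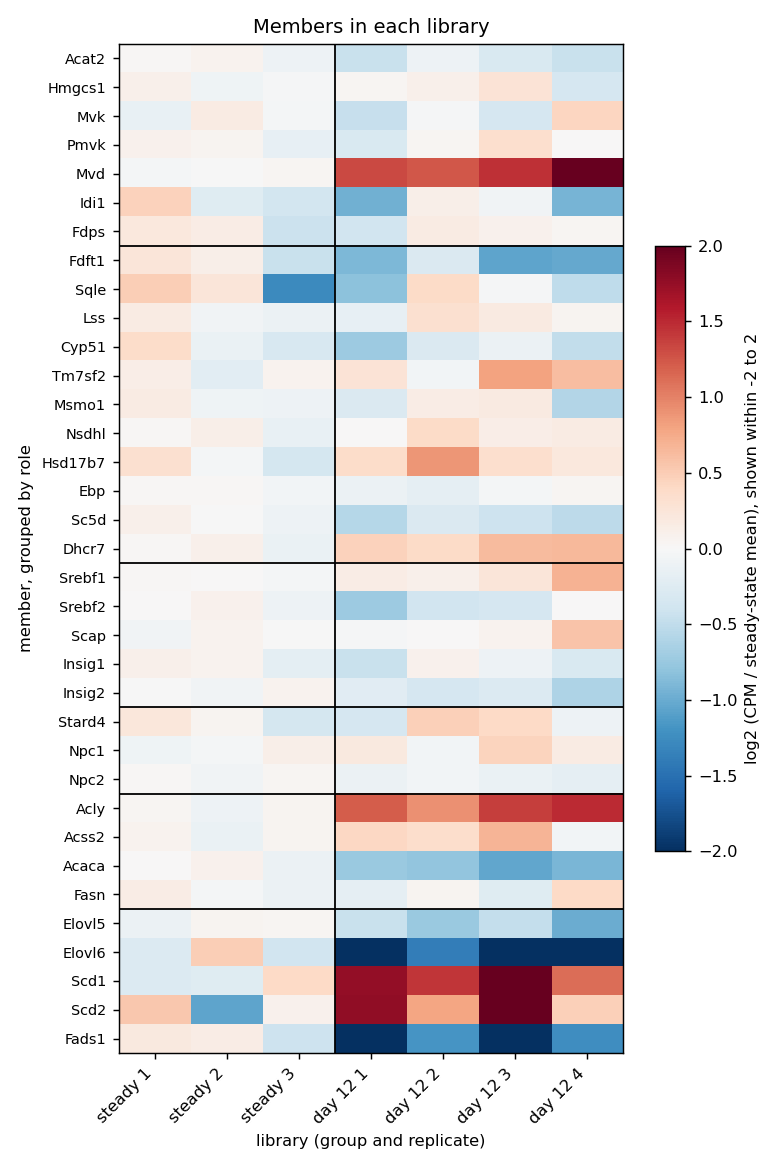
Each tested gene (y axis, grouped by role) in each library (x axis), coloured by log2 of CPM over the steady-state mean and shown within -2 to 2. Mvd, Acly, Scd1 and Scd2 are red in all 4 day 12 columns, Acaca, Elovl5, Elovl6 and Fads1 are blue, and most sterol enzymes stay pale.

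Other genes of lipid metabolism, not among the 36, were set beside them by list. By the same test 10.1% of all genes rose and 10.2% fell. Of 22 tested genes of fatty acid substrate supply and elongation, 2 rose and 3 fell. Me1, malic enzyme, which makes NADPH for lipid synthesis, rose from 5.69 ± 1.81 to 31.9 ± 11.4 CPM (5.58-fold, edgeR adjusted p = 0.00103). The desaturase-like gene Fads3 fell from 1.15 ± 0.207 to 0.309 ± 0.108 CPM (edgeR adjusted p = 0.00574). The elongase gene Elovl7 fell from 2.04 ± 0.108 to 0.895 ± 0.246 CPM (edgeR adjusted p = 0.0130), a call lost without steady-state replicate 1 or 2 (edgeR adjusted p = 0.0629 and 0.0570).

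Of 22 tested genes of sterol transport, storage and oxysterols, 2 rose and 7 fell, with a median log2 fold change of -0.11. Cyp27a1, sterol 27-hydroxylase, which starts an acidic route of sterol breakdown, fell from 47.1 ± 2.56 to 10.7 ± 3.05 CPM (edgeR adjusted p = 0.000172). Soat1, which esterifies cholesterol for storage, fell from 178 ± 12.3 to 98.9 ± 16.2 CPM (edgeR adjusted p = 0.00299). Cyp7b1, an oxysterol 7-hydroxylase, fell from 1.94 ± 0.159 to 0.200 ± 0.169 CPM (edgeR adjusted p = 0.00304), with 1 to 17 reads per day 12 library. All 3 were lower in all 4 day 12 libraries.

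Of 21 genes of SREBP processing and sterol regulation, 2 rose and 0 fell (12 at an unadjusted p under 0.05 and 6 with DESeq2, either direction). Fbxw7, a ubiquitin ligase subunit that marks nuclear SREBP for degradation, rose from 45.9 ± 2.92 to 89.4 ± 18.2 CPM (edgeR adjusted p = 0.00301). Paqr3, a Golgi anchor of SCAP, rose from 2.85 ± 0.404 to 5.13 CPM (SD 1.397) (edgeR adjusted p = 0.0392). That call was lost without any 1 of the 3 steady-state libraries or without day 12 replicate 1 or 3 (edgeR adjusted p from 0.0608 to 0.146), and with limma-voom (adjusted p = 0.0545) or a replicate block (edgeR adjusted p = 0.0607). Of 17 genes of the isoprenoid branch and prenylation, 0 rose and 2 fell (4 at an unadjusted p under 0.05 and 3 with DESeq2). Dhdds, a dolichol synthase subunit, fell from 55.4 ± 2.93 to 43.2 ± 1.93 CPM (edgeR adjusted p = 0.0233). Fnta, the alpha subunit shared by farnesyl and geranylgeranyl transferases, fell from 73.0 ± 2.51 to 55.1 ± 6.18 CPM (edgeR adjusted p = 0.0289). Without any 1 of the 3 steady-state libraries, or without day 12 replicate 1 or 2, both calls were lost (edgeR adjusted p from 0.0529 to 0.116), and that of Dhdds was also lost without day 12 replicate 3 (0.0618).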

How the data were processed

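Poly-A RNA of Tim4+ peritoneal macrophages was measured in 7 libraries, grouped by sample title into steady state and day 12. The authors deposited raw read counts per gene, not normalised, with GRCm39 positions. Tools named per the submitters' processing notes are STAR 2.7.11a, featureCounts from Subread 2.0.6, SAMtools 1.10, DESeq2 1.40.2 and FastQC. Annotation release, strand setting and handling of reads with several matches were not given in the sources used here, which could change values of overlapping and related genes.

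Counts were fitted as a whole table with edgeR 4.0.16 in R 4.3.3 (robust quasi-likelihood, TMM, group as the term). Genes entered by filterByExpr (minimum count 10, minimum total 15), which kept 15981 genes and 35 of the 36 members. Each SE came from the log2 fold change divided by the square root of F, and 95% intervals from the fit's degrees of freedom. P-values reflect only the spread between libraries, and floors cover counting error only. Levels per kilobase used merged exons of GENCODE M21 (GRCm38), matched by Ensembl identifier, and promoter windows came from RefSeq (GRCm38.p6). Merged exons join those of all annotated transcripts, so ranks per kilobase depend on which transcripts are expressed.

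The members and the lists were chosen with earlier results of these data known. All members are given. Called members, the regulators and the 2 most abundant uncalled members per kilobase (Npc2 and Insig1) have values for every library, and Hmgcs1, Fdft1, Sqle, Fasn and Scd2 were added after their values were seen. From each further list came the 3 called genes with the lowest p, or the 1 with the lowest p where none was called. Genes overlapping a member are named from 1 CPM. Alternatives were DESeq2 1.42.0, limma-voom (limma 3.58.1), other scalings and filters, a replicate block and leaving out each library. On simulated counts with the same library sizes (15589 genes tested), 13.0% of genes changed 1.5-fold (9 of 69), 58.8% changed 2-fold (40 of 68) and 93.7% changed 4-fold (59 of 63) were recovered, with 7 false calls among 115. Far fewer genes were changed in the simulation than were called in the data (3242). The adjustment over all genes was thus stricter there, and these shares do not measure recovery in the data.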

Additional observations from a re-analysis of the deposited data

Results flagged for a closer look

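Among the 35 tested members, 2 had a day 12 library far from the other 3 by Dixon's criterion, where chance flags about 1 group in 20. Fdft1 was at 6.33 CPM in day 12 replicate 2, against 3.74 to 4.16 CPM in the others. Scap was at 56.7 CPM in day 12 replicate 4, against 37.5 to 40.1 CPM in the others.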

How the results depend on the processing

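Of 490 values of single members over 14 alternatives, 442 kept their direction and their side of the threshold, 11 lost a call, 13 gained one and 24 changed sign without a call. The calls of Mvd, Acly, Acaca and Scd1 held under all 14. With 1 library left out, the genes called over the whole table numbered 1761 to 4599, the members called higher 3 to 5, those called lower 1 to 7, and the median log2 fold change of the members was -0.08 to 0.11. Of all genes, 1868, 1804 and 1761 were called without steady-state replicates 1, 2 and 3, and members called lower were 3, 1 and 4. These fits have fewer samples. Replicate numbers were not shown to pair the samples: deviations from the group means correlated by -0.141, 0.00775 and 0.203 for numbers 1, 2 and 3. Deviations within so small a group are tied to one another, so this check cannot exclude pairing. With the number as a replicate block, 4278 genes, 6 members higher and 7 lower were called, with a members' median of 0.0072. Steady-state replicates 1, 2 and 3 correlated best with day 12 replicates 2, 4 and 3 (0.191, 0.0287 and 0.203).

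Signs changed for members with folds near 1. The log2 fold change of Fdps was 0.0054 with DESeq2, 0.0335 with upper-quartile scaling, 0.0145 with library sizes alone and 0.0306 with a filter of 1 CPM. With the replicate block it was 0.0072 for Sqle, 0.0134 for Msmo1 and -0.1203 for Fasn. With 1 library left out, log2 fold changes ran from -0.0491 to 0.1419 for Hmgcs1, -0.2585 to 0.0754 for Mvk, -0.0743 to 0.1554 for Pmvk, -0.1849 to 0.13 for Fdps and -0.5435 to 0.1718 for Sqle. The ranges were -0.2115 to 0.0244 for Msmo1, -0.0047 to 0.3006 for Stard4 and -0.1166 to 0.1318 for Fasn. Fdft1 passed as lower with DESeq2 (adjusted p = 0.0174), limma-voom (adjusted p = 0.0492), no filter (edgeR adjusted p = 0.0335) and the block (edgeR adjusted p = 0.0427), and Scd2 passed as higher with DESeq2 (adjusted p = 0.0384) and the block (edgeR adjusted p = 0.00374). The block also called Srebf2 lower (edgeR adjusted p = 0.0230) and Acss2 higher (edgeR adjusted p = 0.0283). In the block fit day 12 replicate 4 had no steady-state partner, so it did not bear on the group difference. These calls of Srebf2 and Acss2 are therefore not separate from those made without that library. The cause of the other changes was not tested. Depth limits Elovl6, Fads1 and Fads2, and Fads2 was left out by the filter.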
